A study of Mus musculus with 1073 samples.

Results

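The levels of 50 listed collagen, laminin and other matrix genes were described across 13 sorted populations of mouse yolk sac cells. The list names fibrillar and basement membrane collagens, laminin chains, proteoglycans, fibrillins, matricellular proteins and the enzymes that make or cut them. It was chosen with earlier results of these data known. Of the 50, 46 were in both tables of filtered cells, which hold 15967 genes and 926 of 1073 captured cells. *Col6a1*, *Col6a2*, *Dcn* and *Lox* were not in them. By their usual place in tissue, 15 of the 46 genes were grouped as interstitial, 16 as basement membrane and 15 as neither. The question was whether interstitial matrix marks the mesoderm and basement membrane the endothelium.

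Cells were sorted from dissected yolk sacs and captured singly on the Fluidigm C1 system, and full-length transcripts were read. Mesoderm was GFP-positive cells of *Flk1*-GFP/+ embryos, which carry GFP at 1 allele of *Flk1* (*Kdr*), with 287 cells over both stages, 140 of them taken at E7.75 and the others at E7.25. The study kept that line on a C57BL/6 background, and the later cells came from C57BL/6 embryos. Haematopoietic progenitor cells (HPC) were TER119- CDH5+ CD41+ at E8.25 (73) and E8.5 (89), and TER119- CDH5- CD45+ CD41low at E9.5 (46) and E10.5 (87). Primitive erythroid cells (EryP) were TER119+ CD41- CDH5- at E8.5 (66) and E10.5 (3). Megakaryocytes (Mk) were TER119- CDH5- CD41+ at E8.5 (37), and also CD45- and high in CD41 at E10.5 (73). E10.5 macrophages (Mac, 25) were TER119- CDH5- CD41- CD45+. Endothelium (Endo) was TER119- CD41- CDH5+ at E8.5 (79), and also CD45- at E10.5 (61). The labels do not say which embryo or pool a cell came from, so each population counts as 1 sample, no test between populations was possible, and intervals cover counting error only.

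Interstitial matrix is a network of fibrillar collagens, fibrillins, fibulins and hyaluronan-bound proteoglycans that fills the space between loose mesodermal cells. Basement membrane is a thin sheet in which laminin and collagen IV networks are joined by nidogens and heparan sulfate proteoglycans, and it lies under endothelium and epithelium. The yolk sac has both, since its blood islands form in a mesodermal layer against the visceral endoderm and become vessels.

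Promoter windows of 250 bases before and 50 bases after the start were taken from RefSeq (GRCm38.p6) for the pairs of genes on which the results below turn. *Col4a1* and *Col4a2* encode the chains of the commonest collagen IV and start head to head. Capitals mark the 22 bases that exons of both genes share, on opposite strands, in the windows at chr8:11312777-11313076 (minus strand) and chr8:11312555-11312854 (plus strand).
Col4a1: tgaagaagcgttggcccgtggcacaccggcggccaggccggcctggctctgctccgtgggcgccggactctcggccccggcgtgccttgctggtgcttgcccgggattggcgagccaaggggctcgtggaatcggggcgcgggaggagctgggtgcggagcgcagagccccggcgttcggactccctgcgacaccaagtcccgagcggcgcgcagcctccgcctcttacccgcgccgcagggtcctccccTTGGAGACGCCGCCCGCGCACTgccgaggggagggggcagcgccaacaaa
Col4a2: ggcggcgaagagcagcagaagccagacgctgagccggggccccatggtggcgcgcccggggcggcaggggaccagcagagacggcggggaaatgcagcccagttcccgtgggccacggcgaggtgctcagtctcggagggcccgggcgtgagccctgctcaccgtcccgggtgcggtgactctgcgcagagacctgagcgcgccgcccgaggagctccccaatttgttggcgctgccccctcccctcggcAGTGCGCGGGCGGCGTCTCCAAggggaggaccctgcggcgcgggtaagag
*Vcan* encodes versican, a large proteoglycan that binds hyaluronan, and *Hapln1* the link protein that holds versican on hyaluronan. They are neighbours on chromosome 13, tail to tail, 43659 bases apart with 0 coding genes between them. The windows are at chr13:89742463-89742762 (minus strand) and chr13:89540386-89540685 (plus strand), and capitals mark matches to GGGCGG and CCAAT on either strand.
Vcan: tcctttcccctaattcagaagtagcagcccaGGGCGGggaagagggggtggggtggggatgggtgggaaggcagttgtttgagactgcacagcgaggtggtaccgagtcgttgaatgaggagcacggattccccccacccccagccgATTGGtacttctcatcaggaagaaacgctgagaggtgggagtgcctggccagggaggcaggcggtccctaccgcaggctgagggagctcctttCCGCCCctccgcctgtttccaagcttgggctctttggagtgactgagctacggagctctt
Hapln1: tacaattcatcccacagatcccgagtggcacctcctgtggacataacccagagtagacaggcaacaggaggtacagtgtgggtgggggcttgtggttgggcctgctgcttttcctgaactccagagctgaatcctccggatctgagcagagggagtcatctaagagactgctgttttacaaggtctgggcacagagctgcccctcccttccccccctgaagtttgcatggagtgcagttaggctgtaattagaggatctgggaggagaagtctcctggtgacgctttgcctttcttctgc
The *Hapln1* window held none of the 5 motifs searched on both strands. Over the 40 windows of 34 listed genes, GGGCGG (the GC box) was in 67.5% and in 35.7% of all 32851 RefSeq windows. CCAAT was in 32.5% and 37.4%, TATAAA in 15% and 13.6%, TGACTCA (the AP-1 motif) in 2.5% and 5.20%, and AGATAA (the GATA motif) in 0% and 11.2%. These shares describe the letters only.

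The median cell held 1887347.5 counts, the shallowest 483830 and the deepest 5943204. Flow cell 1 carried E7.25, E8.25 and E8.5 libraries and flow cell 2 carried those of E7.75, E9.5 and E10.5. The labels give lanes but not the capture chip of a cell, and only the mesoderm stages were spread over 2 lanes. Differences between E7.25 and E7.75, between E7.75 and E8.5, and between E8.5 and E9.5 or E10.5 therefore cannot be told apart from the flow cell. Mesoderm was also dissociated with trypsin but later tissue with collagenase/dispase. Endothelium and HPCs of the same stage were in different lanes, as were E8.5 endothelium and E7.25 mesoderm. Those differences cannot be told apart from the lane. Transcripts of both sexes were found in 293 cells, which may hold more than 1 cell. These made up 59 of 79 E8.5 endothelial cells, 40 of 89 E8.5 HPCs and 26 of 61 E10.5 endothelial cells. In mesoderm there were 33 at E7.25 and 17 at E7.75. Marker genes were then read by label. The summed level of 6 mesoderm markers (*Foxf1*, *Pdgfra*, *Lef1*, *Mesp1*, *Mixl1*, *T*) averaged 587 CPM (counts scaled per cell by the authors) in E7.25 mesoderm and 310 CPM in E7.75 mesoderm, against 32.4 and 70.2 CPM in E8.5 and E10.5 endothelium. These CPM do not add up to a fixed total, and the sum over all genes ran from 699615 to 4176737 per cell. The sum of 7 endothelial markers (*Pecam1*, *Cdh5*, *Tek*, *Kdr*, *Aplnr*, *Plvap*, *Ramp2*) averaged 2888 and 5521 CPM in E8.5 and E10.5 endothelium, and at most 965 CPM elsewhere, in E8.25 HPC. In E8.5 Mk, 5 primitive erythroid markers summed to 34951 CPM (median cell 25294) against 389 CPM for 5 megakaryocyte markers. The same erythroid sum averaged 4549 CPM (median 89.6) in E8.25 HPC and 3808 CPM (median 161) in E8.5 HPC, against 375 and 428 CPM for 4 progenitor markers. These populations are named here by their gates, and the part of erythroid transcripts in their matrix values was not tested.

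In 3 cells the matrix genes went against the label. These cells were picked after seeing the data, partly on the same genes that are later judged without them. Other cells that held over 50% of a gene's sum were kept. E10.5 endothelial cell 16 held *Lama1* at 3004 CPM and *Lamc1* at 4219 CPM, while its endothelial markers summed to 125.4 CPM (median of the population 4783) and *Pecam1* was 0. E10.5 HPC cell 71 held *Nid1* at 633 CPM and *Col4a2* at 402 CPM, with endothelial markers at 2392 CPM (median 85.7). E8.5 endothelial cell 3 had 40 of the 46 genes and held *Lum* at 1250 CPM, *Vcan* at 546 CPM and *Col1a2* at 568 CPM. Genes whose call changes without the highest cell of each population are pointed out below. That is a different exclusion from leaving out these 3 cells. Counts of called genes without the 3 cells are given at the end, and the genes behind those counts are not named.

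Endothelium held the most matrix transcript. The 46 genes took 0.203% and 0.261% of counts in E7.25 and E7.75 mesoderm, 0.768% in E8.5 endothelium and 1.25% in E10.5 endothelium. In HPCs the share was lower at each later stage, from 0.309% (E8.25) through 0.238% (E8.5) and 0.0692% (E9.5) down to 0.0524% (E10.5). Between E8.5 and E9.5 the sort gate and the flow cell also changed, and that step cannot be told apart from them. The share was lowest in EryP (0.0162% at E8.5), and 0.242% in E10.5 Mk. The number of genes found in at least 50% of cells (1 count or more) was 25 and 29 in mesoderm, 30 and 28 in endothelium, 18, 17, 8 and 8 in the HPC stages, 7 and 4 in Mk, 6 in Mac, and 3 and 0 in EryP. Thinning every cell to 840000 counts lowered a gene's share of cells by a median of 0 to 3.82 percentage points per population. The largest fall of a single gene was 12.1 points in E7.75 mesoderm, 14.1 in E10.5 endothelium, 16.0 in E10.5 Mac, 18.1 in E9.5 HPC and 18.9 in E8.5 Mk, and 33.3 among the 3 E10.5 EryP cells.

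**Figure D1:**
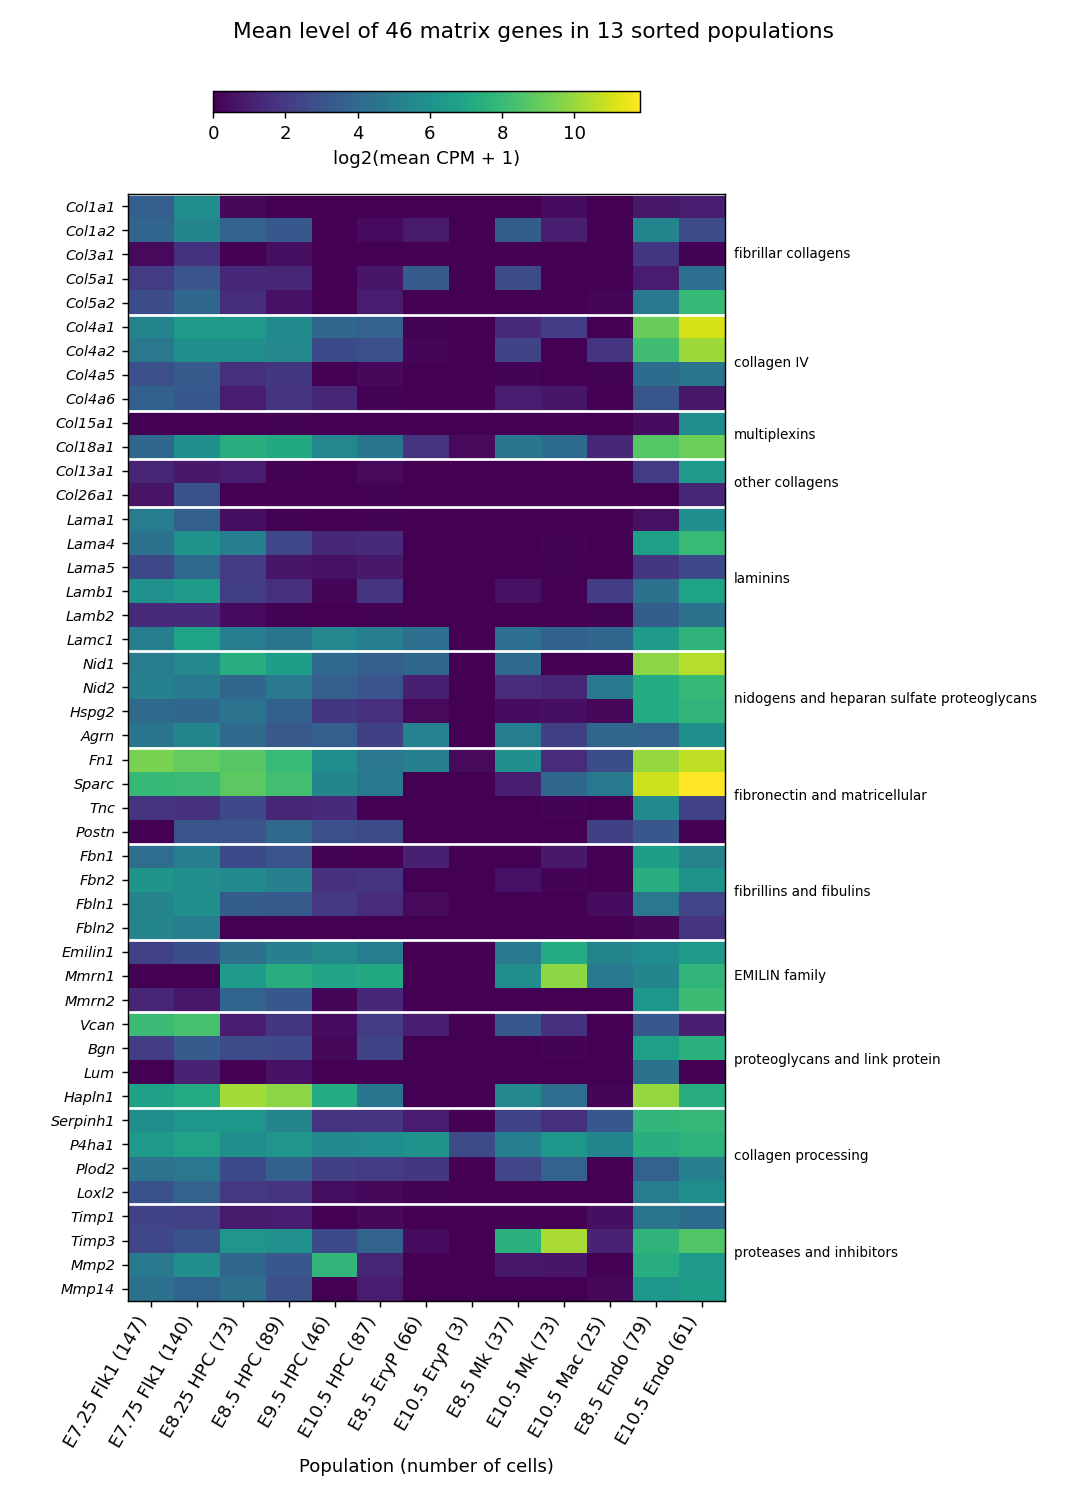
Mean level of the 46 genes (rows, grouped by role) in the 13 populations (columns, number of cells in brackets), as log2 of mean CPM + 1. *Sparc* and *Col4a1* in E10.5 endothelium are the brightest cells at 3578 and 2192 CPM, *Vcan* is bright in both mesoderm columns, and *Timp3* and *Mmrn1* stand out in E10.5 Mk.

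*Fn1*, *Vcan* and *Sparc* led the mesoderm at both stages. *Hapln1*, *Sparc* and *Fn1* led the HPCs at E8.25 and E8.5 and, with *Sparc* first, the E8.5 endothelium. *Sparc*, *Col4a1* and *Fn1* led the E10.5 endothelium. *Sparc*, a secreted collagen-binding protein, was found in 79 of 79 and 61 of 61 endothelial cells. Per kilobase of exon it was the first of the 46 in E7.75 mesoderm (70.0 CPM per kb), E8.5 endothelium (508.7) and E10.5 endothelium (945). *Fn1* (fibronectin, the early cell-adhesive matrix) came second at 44.0 CPM per kb at E7.75. *Hapln1* came second in E8.5 endothelium (166), and *Col4a1* second in E10.5 endothelium (294).

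The balance of the compartments lay further towards basement membrane in endothelium than in mesoderm. The mean interstitial sum, however, was not higher in mesoderm than in endothelium. The interstitial genes summed to a mean of 539.5 CPM per cell at E7.25 (lowest 1.14, median 361.5, highest 4175) and 771 CPM at E7.75 (lowest 4.01, median 631, highest 4502). In endothelium the same sum was 1583 CPM at E8.5 (lowest 69.7, median 1418.8, highest 4273.5). At E10.5 it was 810 CPM (lowest 8.63, median 567, highest 2909). E8.5 endothelium thus held the highest level of the 4 populations. By the median cell, E10.5 endothelium lay under E7.75 mesoderm, although its mean was higher. The order of the means rested on *Hapln1*. Without it the mean sums were 431 and 624 CPM in E7.25 and E7.75 mesoderm, 602 CPM in E8.5 endothelium and 647 CPM in E10.5 endothelium, and those of E8.25 and E8.5 HPCs went from 1252 and 987 CPM to 119.7 and 121.3 CPM. The basement membrane sum was 355 CPM (lowest 24.1, median 307, highest 3361) and 654 CPM (lowest 63.4, median 556, highest 4785) in mesoderm. It was 2681 CPM in E8.5 endothelium (lowest 433.6, median 2705, highest 7106) and 6555 CPM in E10.5 endothelium (lowest 673, median 5683, highest 23984). The single cells of mesoderm and endothelium overlapped in both sums.

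Within a cell, the basement membrane part of the 2 sums had a median of 41.8% and 45.9% in E7.25 and E7.75 mesoderm, and 66.3% and 90.8% in E8.5 and E10.5 endothelium. Basement membrane was the larger sum in 49 E7.25 cells (33.3%, exact 95% interval 25.8 to 41.6) and in 61 of 140 at E7.75 (43.6%, 35.2 to 52.2). It was the larger in 70 of 79 E8.5 endothelial cells (88.6%, 79.5 to 94.7) and in 60 of 61 E10.5 ones (98.4%, 91.2 to 99.96). As log2 of the ratio of mean sums, the balance was -0.60, -0.24, 0.76 and 3.02. In mesoderm this ratio rested on single genes. *Vcan* made up 49.0% and 43.1% of the interstitial sum, and without the highest gene of each list the E7.25 ratio was 0.09 and the E7.75 ratio 0.30. *Hapln1* was 61.9% of the interstitial sum in E8.5 endothelium, and without it the ratio there was 2.15, and 0.07 at E7.75. A positive ratio was not particular to endothelium. It was 2.58 in E8.5 EryP, 0.54 in Mac and 0.50 in E10.5 HPC, at basement membrane sums of 74.3, 62.7 and 104.1 CPM. The ratio was -1.04, -1.26 and -0.50 in E8.25, E8.5 and E9.5 HPC, -0.03 in E8.5 Mk and -2.17 in E10.5 Mk. E10.5 EryP had an interstitial sum of 0 and no ratio.

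**Figure D2:**
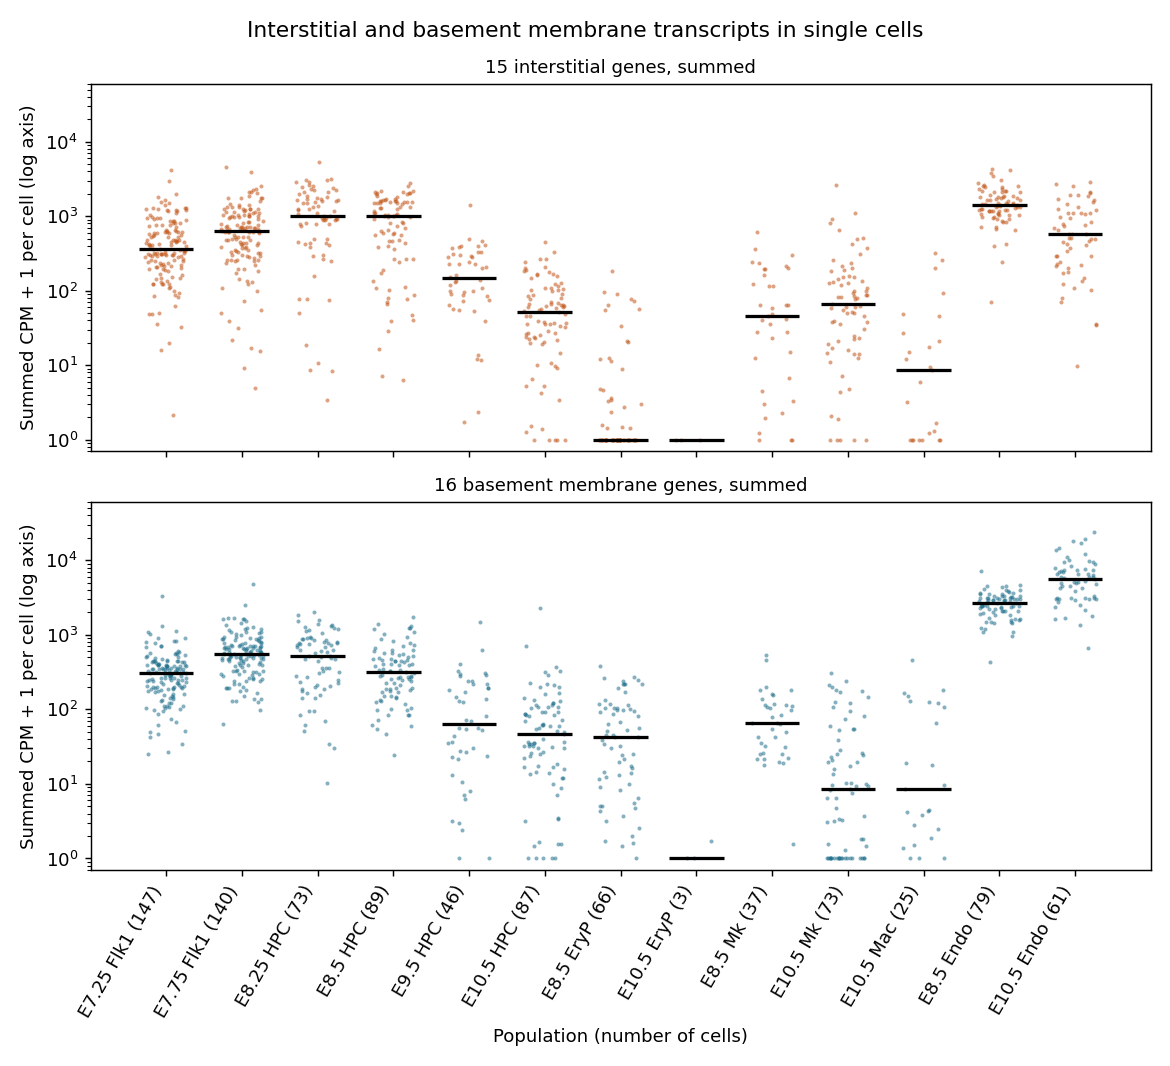
Summed CPM + 1 (log axis) of the 15 interstitial genes (top) and the 16 basement membrane genes (bottom) in each cell, with a bar at the median of each population. The endothelial medians of the basement membrane sum (2705 and 5683 CPM) lie above every other population, whereas the interstitial medians of E8.25 HPC, E8.5 HPC and E8.5 endothelium lie above those of mesoderm. Without *Hapln1* the HPC medians (84.1 and 89.5 CPM) were under those of mesoderm (306 and 465 CPM), and that of E8.5 endothelium was 523 CPM.

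In the following comparisons a gene was tested for size if its mean reached 10 CPM in either population, and was called higher or lower at a log2 ratio of mean CPM + 1 of 1 or more in size, that is about 2-fold. E8.5 endothelium was set against E7.75 mesoderm to ask what differs between vessel cells and the earlier *Flk1*-GFP+ tissue. Of 39 matrix genes tested, 23 were higher in endothelium, where 20.3% of all 9575 genes tested were, and 8 were lower, where 12.8% of all were. The median log2 ratio was 1.59 over the matrix genes and 0.04 over all genes. The other 7 matrix genes were under 10 CPM in both.

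Basement membrane genes split into those higher and those lower in endothelium. *Nid1* (nidogen 1, which links laminin to collagen IV) was in 93 of 140 mesoderm cells at a mean of 45.9 CPM (lowest 0, median 3.87, highest 433). It was in all 79 endothelial cells at 861 CPM (lowest 11.9, median 808, highest 2076), a log2 ratio of 4.20. *Hspg2* (perlecan, a heparan sulfate proteoglycan) was at 14.0 CPM (0, 4.42 and 113.6) in mesoderm and 153.3 CPM (9.88, 134.8 and 896) in endothelium, log2 3.36. For both genes the groups overlapped, but the lowest endothelial cell exceeded the median mesoderm cell. *Col4a1*, *Col4a2*, *Col18a1* (the source of endostatin), *Nid2* and *Lamb2* were also higher, by log2 2.61, 2.32, 2.76, 2.35 and 2.08. The *Lamb2* mean of 10.1 CPM falls under the 10 CPM limit without its highest cell.

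The other side held laminin chains and agrin. *Lamb1* (the laminin β1 chain) was in 96.4% of mesoderm cells (interval 91.9 to 98.8) at 90.2 CPM, with a lowest cell at 0, a median of 42.1 and a highest at 1757 CPM. It was in 33 of 79 endothelial cells (41.8%, 30.8 to 53.4) at 20.5 CPM, with a median of 0 and a highest of 258 CPM, log2 -2.08. After thinning the shares were 95.1% and 34.2%. *Lama5* (laminin α5) was at 15.2 CPM in mesoderm (0, 0.769 and 443) and 2.69 CPM in endothelium (0, 0 and 49.0), log2 -2.13. *Lama1* (laminin α1, the chain of the earliest embryonic basement membranes) was at 11.48 and 0.457 CPM, log2 -3.10, and without its highest mesoderm cell it fell under 10 CPM. *Agrn* (agrin) was at 40.4 and 12.3 CPM, log2 -1.63. *Lama4* (66.0 and 102.3 CPM), *Lamc1* (115.3 and 88.6 CPM) and *Col4a5* (9.98 and 17.2 CPM) lay between the limits. Of 14 basement membrane genes tested, 7 were higher and 4 lower.

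Of 12 interstitial genes tested, 7 were higher in endothelium and only *Vcan*, *Col1a1* and *Fbln1* were lower. *Vcan* was in 96.4% of mesoderm cells at 332.5 CPM (lowest 0, median 226, highest 2476). It was in 9 of 79 endothelial cells (11.4%, interval 5.34 to 20.5) at 8.61 CPM (0, 0 and 546), log2 -5.12. The highest endothelial cell was cell 3, and without it the mean was 1.72 CPM. *Col1a1* (the α1 chain of collagen I) was in 100 of 140 mesoderm cells at 53.5 CPM (0, 9.73 and 2038) and in 2 of 79 endothelial cells at 0.703 CPM (0, 0 and 44.5), log2 -5.00. *Fbln1* (fibulin 1, which binds fibronectin and versican) was at 60.1 CPM (0, 32.2 and 583) and 25.2 CPM, log2 -1.22. *Fbln2*, placed in neither group, was in 72 mesoderm cells at 31.6 CPM (0, 0.515 and 1260) and in 2 endothelial cells at 0.194 CPM (0, 0 and 11.48), log2 -4.77.

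The interstitial genes higher in endothelium included *Hapln1*, *Bgn* (biglycan, a small leucine-rich proteoglycan), *Tnc* (tenascin C), *Fbn1*, *Fbn2* (fibrillins, which build microfibrils) and *Emilin1* (an elastic fibre glycoprotein). *Hapln1* was at 146.9 CPM in mesoderm (0, 53.0 and 1702) and 980 CPM in endothelium (5.55, 856 and 3613), log2 2.73. *Bgn* was in 35 of 140 mesoderm cells at 9.73 CPM (0, 0 and 160) and in 66 of 79 endothelial cells at 105.2 CPM (0, 39.5 and 523.5), log2 3.31. *Tnc* was in 9 mesoderm cells at 2.20 CPM (0, 0 and 179) and in 43 endothelial cells at 48.4 CPM (0, 0.851 and 472), log2 3.95. *Fbn1*, *Fbn2* and *Emilin1* were higher by log2 1.55, 1.62 and 2.87. *Fbn1* shares 20.1% of its exon bases with *Gm9913* on the opposite strand. *Lum* (lumican) was called at 3.28, but cell 3 held 76.0% of its sum, and without the highest cells its mean of 5.07 CPM was under the limit. *Col1a2* (40.6 and 39.3 CPM) and *Col5a2* (14.9 and 26.6 CPM) did not differ by 2-fold.

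Among the remaining genes, *Mmrn2* (multimerin 2, an endothelial matrix glycoprotein) was at 0.717 CPM in mesoderm (0, 0 and 27.4) and 72.5 CPM in endothelium (0, 39.5 and 372), log2 5.42. *Timp3* (a matrix-bound inhibitor of metalloproteinases) was in 22 of 140 mesoderm cells at 6.95 CPM (0, 0 and 214) and in 78 of 79 endothelial cells at 202 CPM (0, 161 and 1033), log2 4.68. *Mmp2* and *Mmp14*, a gelatinase and the membrane protease that activates it, were at 56.7 and 12.8 CPM in mesoderm and 161 and 72.8 CPM in endothelium. *Serpinh1* (the collagen chaperone HSP47) was in every cell of both populations, at 73.5 and 223 CPM, log2 1.59. *Plod2* (25.1 and 12.3 CPM) was inside the limits at log2 -0.97, and lower at -1.13 without the highest cells. *Fn1* lay just inside the limits, at 515 CPM in mesoderm (3.72, 435.5 and 2641) and 969 CPM in endothelium (114.2, 966 and 2851), log2 0.91.

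Against E7.25 mesoderm, which shares the flow cell but not the dissociation, the same endothelial cells gave 29 higher (20.8% of all 9487 genes tested) and 5 lower (12.8% of all) of 39 tested. The median log2 ratio was 2.06 over the matrix genes and 0.01 over all genes. *Vcan* (264 CPM at E7.25, lowest 0, median 155.6, highest 3502), *Fbln2* (40.8 CPM; 0, 11.0 and 348), *Col1a1*, *Lama1* and *Lamb1* were the 5 lower, by log2 -4.79, -5.13, -2.76, -4.41 and -1.57. Without their highest cells *Col1a1* and *Lama1* were no longer tested, since the E7.25 means became 9.79 and 7.24 CPM, *Lamb2* and *Lum* fell under 10 CPM likewise, and *Agrn* went from -0.84 to -1.45. *Lamc1* and *Lama4*, between the limits against E7.75, were higher by log2 1.46 and 2.26 against E7.25. This comparison and the one before it share their endothelial cells.

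**Figure D3:**
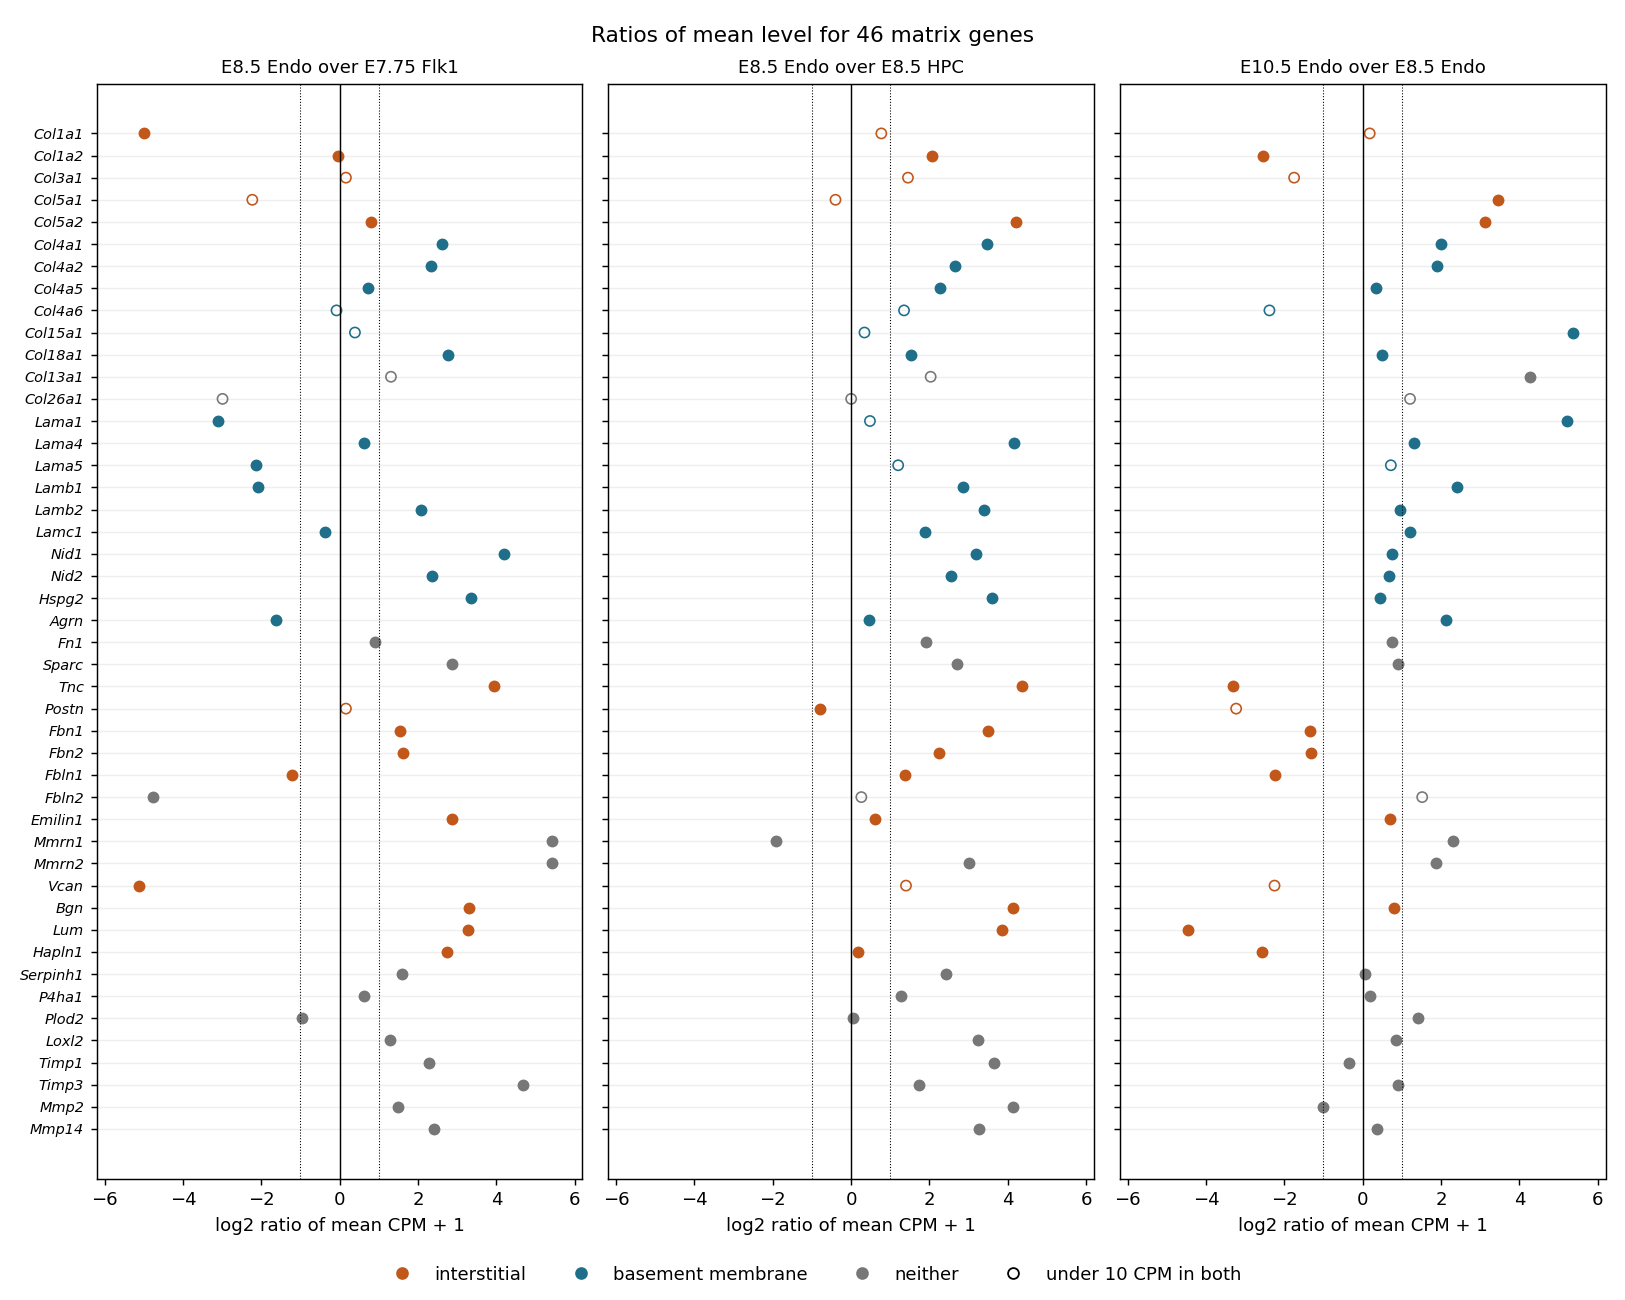
Log2 ratio of mean CPM + 1 for each gene (rows) in 3 comparisons, coloured by compartment; open circles had a mean under 10 CPM in both populations and dotted lines mark a ratio of 1 in size. In the left panel *Vcan* and *Col1a1* lie near -5 beside interstitial genes above 2, and in the right panel basement membrane genes lie (filled circles) lie at or above 0.35 while 7 interstitial genes lie below -1.

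Between E7.25 and E7.75, 10 of 30 genes tested were higher at the later stage (4.92% of all 8888 genes tested) and 1 was lower (5.46% of all). The median log2 ratio was 0.52, and 0.04 over all genes. Collagens and laminins made up most of the 10. *Col1a1* went from 10.54 CPM (lowest 0, median 0.568, highest 119.2) to 53.5 CPM, log2 2.24, and *Col1a2* from 13.4 to 40.6 CPM, log2 1.53. *Col18a1* was in 56.5% of cells at 14.5 CPM and in 90.7% at 59.9 CPM (51.7% and 86.9% after thinning), log2 1.97. *Lamc1* (31.6 and 115.3 CPM), *Lama4* (20.6 and 66.0), *Lama5* (5.07 and 15.2), *Col4a1* (39.6 and 89.0), *Col4a2* (25.7 and 57.6), *Col5a2* (5.87 and 14.9) and *Mmp2* (26.3 and 56.7) were also higher. *Col4a1* fell to log2 0.92 without the highest cell of each stage.

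The 1 gene called lower was *Lama1*, with means of 29.9 CPM (E7.25) and 11.48 CPM (E7.75), log2 -1.31. A single E7.25 cell (cell 5, 3342 CPM) held 76.0% of the E7.25 sum. Without the highest cell of each stage the ratio was 0.40, and *Lama1* was detected in 27.9% of the earlier and 40% of the later cells (24.5% and 32.8% after thinning). The 2 lanes of a stage differed in level too. *Col1a1* averaged 90.1 and 31.2 CPM in the 2 lanes at E7.75, and *Vcan* 317 and 212 CPM in those at E7.25. Leaving out each lane in turn gave 10 to 12 genes higher and 0 to 2 lower. *Vcan*, *Hapln1*, *Fn1*, *Sparc* and both nidogens changed by less than 2-fold between the stages, although *Hapln1* was in 54.4% of cells (46.0 to 62.7) at E7.25 and 92.9% (87.3 to 96.5) at E7.75, or 51.7% and 87.7% after thinning.

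*Flk1*-GFP+ cells with at least 4 of 6 haemato-endothelial genes (*Kit*, *Gata2*, *Fli1*, *Hhex*, *Lmo2*, *Tal1*) were set against the other cells of the same stage. At E7.25 (86 and 61 cells), 3 of 27 genes tested (*Hapln1*, *Hspg2* and *Lama1*) were higher (4.75% of 8710 genes) and 0 lower (3.54%). *Hapln1* was at 174 CPM in the class and 15.9 CPM outside it, log2 3.38, and 4.25 and 3.03 in the 2 lanes. *Lama1* (47.1 and 5.76 CPM) rested on cell 5, and without the highest cells its means of 8.31 and 3.78 CPM were under the 10 CPM limit. *Hspg2* (log2 1.07) was at 0.67 and 1.51 in the 2 lanes and at 0.75 without the highest cells, whereas *Fbn1* then went from 0.87 to 1.74 and *Col4a2* from 0.98 to 1.03. At E7.75 (91 and 49 cells), 0 of 33 were higher (5.42% of 9012 genes) and 6 lower (8.06%). *Bgn* was at 1.86 CPM in the class and 24.3 CPM outside it, log2 -3.15, and -2.78 and -3.74 in the 2 lanes. *Lama1* was lower in both lanes as well, by log2 -1.46 and -1.31. The other 4 lower genes were called in 1 lane each. *Col5a2* was at -2.70 and -0.21, *Lamb1* at -0.92 and -1.54, and *Col4a6* at -1.10 (under 10 CPM in that lane) and -1.67. *Postn* had opposite signs, -3.79 and 0.89 (under 10 CPM in the latter lane), and was under 10 CPM without the highest cells. *Col4a1* and *Fn1* did not differ by 2-fold in any lane. *Vcan* did not over both lanes of a stage, but was at log2 1.19 in 1 lane of E7.25 and -1.23 in 1 of E7.75.

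At E8.5, endothelium was set against the HPCs of the same stage, which share CDH5 but also carry CD41. Of 35 genes tested, 29 were higher in endothelium (17.9% of all 9433 genes tested) and 1 lower (10.4% of all), with a median log2 ratio of 2.65 against -0.03 over all genes. *Col5a2*, *Lama4*, *Mmp2* and *Bgn* showed the larger ratios. *Lama4* (laminin α4, the chain of vessel basement membrane) was in 20 of 89 HPCs at 4.80 CPM (0, 0 and 102.5) and in 74 of 79 endothelial cells at 102.3 CPM (0, 49.6 and 1112), log2 4.15. *Mmp2* was at 8.15 CPM (0, 0 and 138.1) and 161 CPM (0, 81.4 and 2669), log2 4.14. *Col5a2* was at 0.479 CPM (0, 0 and 16.3) and 26.6 CPM (0, 3.48 and 206), log2 4.22.

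A few genes were shared by the HPCs and endothelium. *Hapln1* was in every cell of both, at 866 CPM in HPCs (1.94, 878 and 2578) and 980 CPM in endothelium, log2 0.18. It made up 87.7% of the interstitial sum of E8.5 HPCs and 90.4% of that of E8.25 HPCs, where it averaged 1132 CPM (0.395, 874 and 5377). *Agrn* (8.76 and 12.3 CPM), *Emilin1* (34.0 and 52.1) and *Plod2* (a collagen lysyl hydroxylase; 11.9 and 12.3) also differed by less than 2-fold. The 1 gene lower in endothelium was *Mmrn1* (multimerin 1, stored in platelets and endothelium), in 75 of 89 HPCs at 164 CPM (0, 61.7 and 1540) and in 41 of 79 endothelial cells at 42.2 CPM (0, 0.425 and 354), log2 -1.93. *Postn* (periostin; 15.3 and 8.37 CPM) was also lower, by log2 -1.90, without the highest cells, and *Lamb2* and *Lum* then fell under the 10 CPM limit.

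E10.5 endothelium was set against E8.5 endothelium. Of 38 genes tested, 14 were higher at E10.5 (21.2% of all 9938 genes tested) and 8 lower (16.4% of all), and the median log2 ratio was 0.78 against 0.06 over all genes. The higher share was thus above that of all genes, and the lower share near it. All 8 lower genes but *Mmp2* were interstitial, and none of the 14 basement membrane genes tested was lower. Without the 3 cells that stood apart, 13 genes were higher and 6 lower.

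*Col15a1* and *Col13a1* were found mainly at E10.5. *Col15a1* (a multiplexin of vascular basement membrane) was in 3 of 79 cells (3.80%, interval 0.790 to 10.7) at 0.310 CPM (0, 0 and 20.4) and in 43 of 61 (70.5%, 57.4 to 81.5) at 53.4 CPM (0, 3.12 and 620.5), log2 5.37. It was in 0 mesoderm cells, which allows up to 2.04% and 2.14% of the cells of the earlier and later stage, and in 0% to 3.37% of cells of each HPC, EryP, Mk and Mac population. *Col13a1* (a transmembrane collagen) was in 33 cells at 3.28 CPM (0, 0 and 46.3) and in 53 cells at 82.4 CPM (0, 25.8 and 1020), log2 4.28. *Col4a1* was in every cell at both stages, at 549 CPM (116.6, 518 and 1352) and 2192 CPM (12.46, 1605 and 12928), log2 2.00. *Col4a2* followed at 291 and 1088 CPM, log2 1.90. *Lamb1* was at 20.5 and 113.9 CPM, log2 2.42, and *Agrn* at 12.3 and 57.3 CPM, log2 2.13.

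*Lama1*, *Lamc1* and *Plod2* were called higher through few cells. *Lama1* was at 53.4 CPM in 9 of 61 cells at E10.5, of which cell 16 held 3004 CPM, and without the highest cells the E10.5 mean was under 10 CPM. *Lamc1* went from log2 1.20 to 0.73 and *Plod2* from 1.41 to 0.75 without the highest cells, while *Lamb2* went from 0.96 to 1.14. The fibrillar collagens parted. *Col5a2* was at 26.6 and 238 CPM (0, 96.3 and 1646 at E10.5), log2 3.12, and *Col5a1* at 0.841 CPM (0, 0 and 20.1) and 19.1 CPM (0, 0 and 555), log2 3.45. *Col1a2* was lower, at 39.3 CPM (0, 3.45 and 568) and 5.92 CPM (0, 0 and 174), log2 -2.54.

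*Hapln1* was also lower at E10.5, at 980 and 163 CPM (0, 18.4 and 2349), log2 -2.58, although still in 49 of 61 cells. *Tnc* was in 43 of 79 and 5 of 61 cells, at 48.4 and 3.98 CPM (0, 0 and 199), log2 -3.31. *Fbln1* (25.2 CPM, with a highest cell of 399, and 4.49 CPM, with a highest of 128.4) was lower by log2 -2.25, and *Fbn1* and *Fbn2* by -1.34 and -1.33. *Fbn2* was in 79 of 79 cells at E8.5 and in 17 of 61 (27.9%, 17.2 to 40.8) at E10.5. *Lum* was in 0 of 61 cells at E10.5, which allows up to 4.92%, and the E8.5 value rests on cell 3. *Fn1*, *Sparc*, *Nid1*, *Hspg2*, *Col18a1* and *Serpinh1* differed by less than 2-fold, the largest of these at log2 0.89 (*Sparc*, 1927 and 3578 CPM).

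At E10.5, endothelium against HPCs gave 33 of 34 genes tested higher (30.4% of all 10248 genes tested) and 0 lower (20.4% of all, 50.8% in either direction), with a median log2 ratio of 5.09 against 0.15. *Sparc* was at 26.3 CPM in HPCs (0, 0.401 and 743) and 3578 CPM in endothelium (645, 3284 and 11398), log2 7.04. *Col4a1* was at 12.3 CPM (0, 0 and 363), log2 7.37. *Nid1* was at 11.4 CPM (0, 0 and 633), log2 6.88, and HPC cell 71 held 63.6% of the HPC sum. Without it the HPC mean was 4.21 CPM. *Lama1* was no longer tested without its highest cell. The only gene inside the limits was *Mmrn1*, at 141.6 CPM in HPCs (0, 93.5 and 695) and 212 CPM in endothelium (0, 3.33 and 2749), log2 0.58. The median HPC thus held more *Mmrn1* than the median endothelial cell, while the mean was higher in endothelium.

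**Figure D4:**
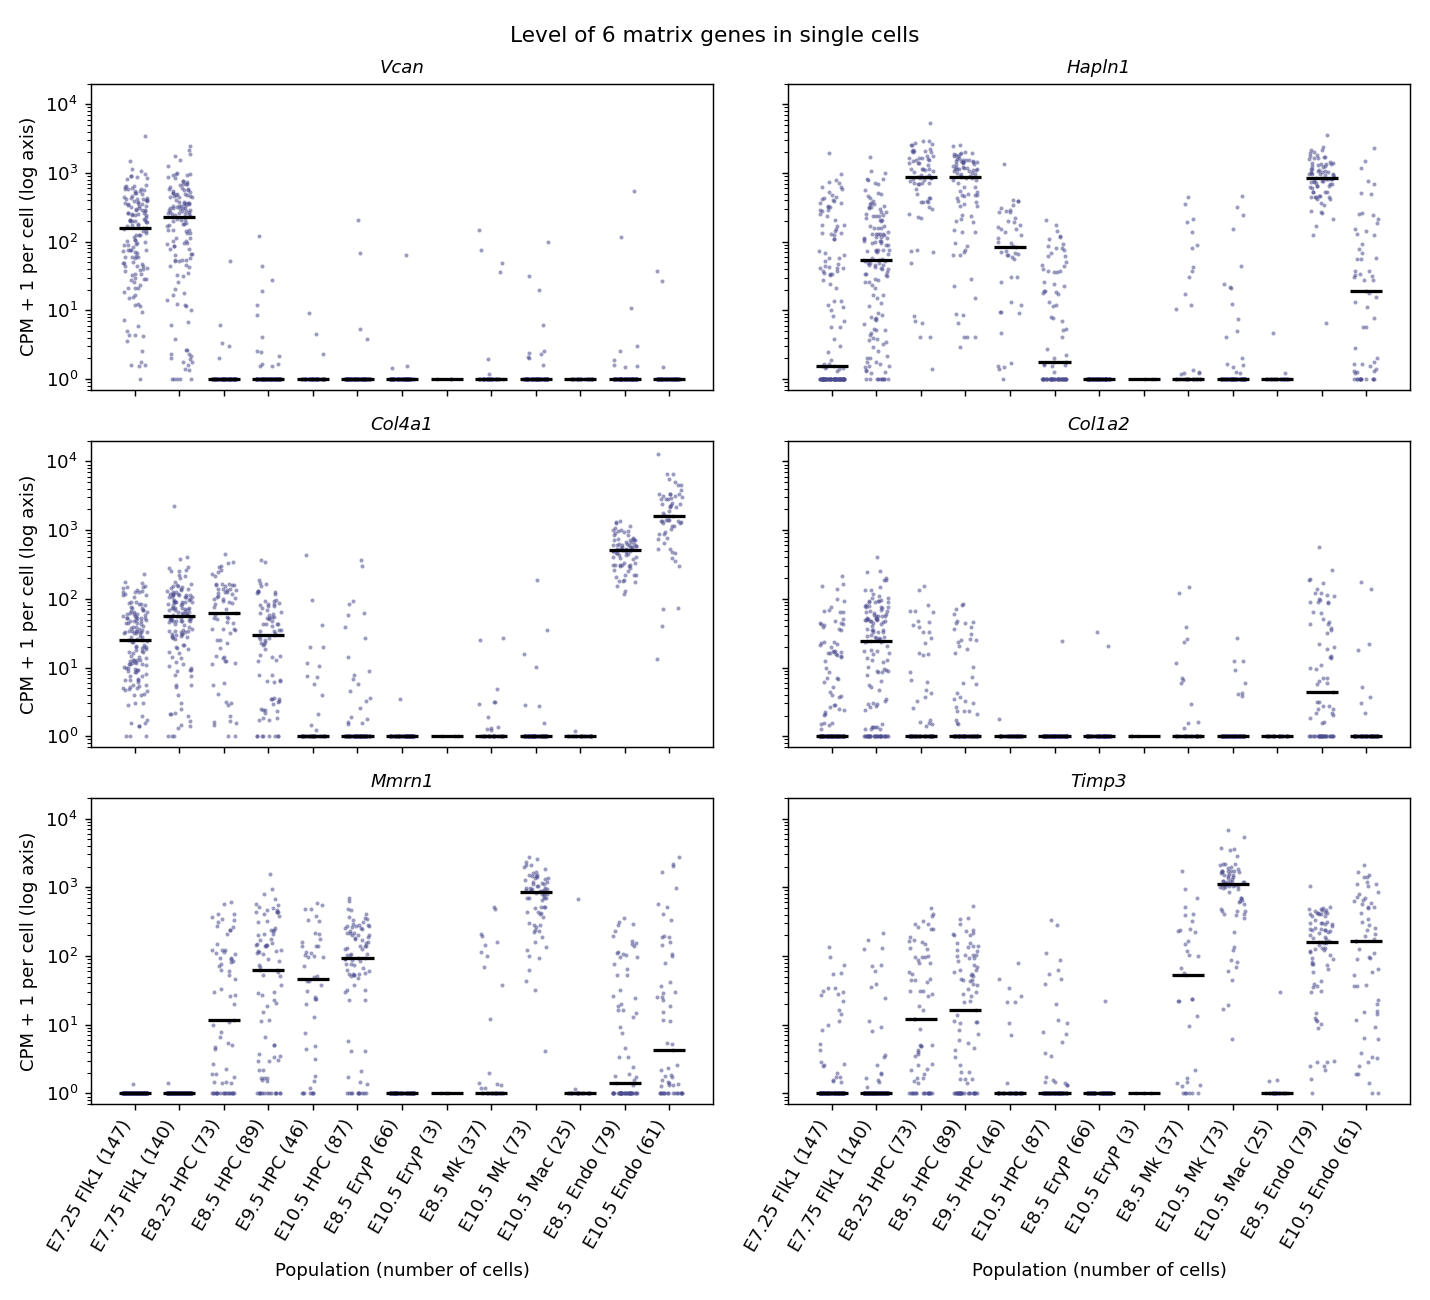
CPM + 1 (log axis) of 6 genes in each cell of the 13 populations, with a bar at the median. *Vcan* lies high only in the 2 mesoderm populations. *Hapln1* is highest in E8.25 and E8.5 HPCs and in E8.5 endothelium, *Col4a1* in endothelium, and *Mmrn1* and *Timp3* in E10.5 Mk.

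Partner chains were then read in single cells. All counts of cells with partner transcripts include the cells with transcripts of both sexes, 59 of the 79 in E8.5 endothelium. These counts were not recomputed without those cells. They were also not set against the number expected from the share of each gene alone, so they do not show whether partners go together. Collagen IV is built of 2 chains from *Col4a1* and 1 from *Col4a2*, and both transcripts were in the same cell in 79 of 79 and 61 of 61 endothelial cells. Both were found together in 78.9% of E7.25 and 91.4% of E7.75 cells, and after thinning in 74.2% and 83.6%. Spearman's rho of their levels across the cells of a population was 0.22, 0.24, 0.37 and 0.51 in E7.25, E7.75, E8.5 endothelium and E10.5 endothelium. These values describe cells that share a library. The reads of the 22 shared bases cannot be assigned by a count without strand, but they are 0.295% of the *Col4a1* exons.

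Outside mesoderm the chains of collagen I were seldom in the same cell. Collagen I is made of *Col1a1* and *Col1a2* chains, and at E7.75 both were in 83 of 140 cells, *Col1a1* alone in 17 and *Col1a2* alone in 28. In E8.5 endothelium both were in 2 of 79 cells and *Col1a2* alone in 50, and after thinning in 2 and 49. In E8.5 HPCs *Col1a2* alone was in 35 of 89 cells and *Col1a1* in 0, which allows up to 3.37% of cells. At E7.25 both were in 34 cells (23.1%), with *Col1a1* alone in 47 and *Col1a2* alone in 28. Their levels were little related across cells in mesoderm too, with a rho of -0.02 and 0.19 at the earlier and later stage, 0.24 in E8.5 endothelium and -0.05 in E10.5 endothelium. Collagen V chains showed a like gap. In E10.5 endothelium *Col5a1* and *Col5a2* were together in 19 of 61 cells and *Col5a2* alone in 41. In E8.5 EryP *Col5a1* alone was in 22 of 66 cells (33.3%) and *Col5a2* in 0.

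A laminin trimer needs an α, a β and a γ chain. *Lamb1* and *Lamc1* were found together in 66.0% and 92.1% of mesoderm cells, and in 32 of 79 and 34 of 61 endothelial cells. In E8.5 endothelium *Lamc1* without *Lamb1* was in 38 cells, and in E8.5 HPCs in 61 of 89. All the chains of laminin α4β1γ1 (*Lama4*, *Lamb1*, *Lamc1*) were in the same cell in 40.8% of E7.25 and 77.1% of E7.75 cells, in 32 of 79 E8.5 endothelial and 33 of 61 E10.5 endothelial cells. The corresponding numbers with *Lama1* in place of *Lama4* were 30, 56, 2 and 5 cells. E7.75 mesoderm thus held the largest share of cells with every chain of either of these β1 trimers among these 4 populations. Trimers with the β2 chain (*Lamb2*) were not counted. *Lamb2* was in 26.5% of E7.25 and 21.4% of E7.75 cells, and in 41.8% of E8.5 and 57.4% of E10.5 endothelial cells.

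*Vcan* and *Hapln1*, whose products form a complex on hyaluronan, were together in 53.7% of E7.25 and 89.3% of E7.75 cells. At E7.25, *Vcan* without *Hapln1* was in 67 cells. In E8.5 endothelium they were together in 9 of 79 cells and *Hapln1* was without *Vcan* in 70, in E8.5 HPCs in 14 and 75 of 89 cells, and in E10.5 endothelium in 3 and 46 of 61. After thinning, the E8.5 endothelial numbers were 8 and 71. *Hapln1* was in every E8.5 HPC and E8.5 endothelial cell, so the numbers there restate the share of cells with *Vcan*. The link protein transcript was thus mostly found without the versican transcript in these HPC and endothelial cells.

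Blood lineages held few matrix genes at high level. E10.5 Mk held *Timp3* in 73 of 73 cells at 1285 CPM (5.09, 1108 and 6763) and *Mmrn1* in 73 of 73 at 886 CPM (3.16, 840 and 2745). Both were the highest means of these genes in any population. *Mmrn2* was in 0 of 73, which allows up to 4.11%. *Timp3* shares 1733 bases, 21.3% of its exons, with *Syn3* on the opposite strand, and the reads cannot be assigned there without strand. *Emilin1* followed in 67 of 73 at 150.5 CPM (0, 48.9 and 2590) and made up 87.0% of the interstitial sum of these cells, whose balance of basement membrane over interstitial was log2 -2.17. At E8.5, Mk held *Timp3* at 186 CPM (0, 51.0 and 1718), *Fn1* at 60.0 CPM (0, 9.33 and 506) and *Mmrn1* in 17 of 37 cells at 55.0 CPM (0, 0 and 519).

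*Agrn*, which encodes a heparan sulfate proteoglycan best known from the neuromuscular junction, was in 60 of 66 E8.5 EryP at 36.9 CPM (0, 9.99 and 262) and in 36 of 37 E8.5 Mk at 29.7 CPM. After thinning the shares were 81.8% and 91.9%. It was in 41 of 79 endothelial cells of the same stage, 48.1% after thinning. *Agrn* made up 49.7% of the basement membrane sum of E8.5 EryP. *P4ha1* (the prolyl hydroxylase of collagen) was the first of the 46 genes in E8.5 EryP at 65.9 CPM (0, 42.5 and 381) and in Mac at 38.9 CPM (0, 7.62 and 198), and was at 52.6 CPM (0, 26.7 and 348) in E10.5 HPCs. It lay above 30 CPM in every population but the 3 E10.5 EryP cells. *Nid2* was in 13 of 25 Mac at 26.8 CPM (0, 0.221 and 160), while *Nid1* was in 0 of 25, which allows up to 12% of cells. *Nid2* shares 437 bases of exon with *Rtraf* on the opposite strand.

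Several levels in blood cells belonged to single cells. *Mmp2* led the E9.5 HPCs at 217 CPM, of which cell 31 held 9594 CPM and 96.2% of the sum, and without it the mean was 8.53 CPM. *Mmrn1* in Mac averaged 27.3 CPM through cell 13 at 682 CPM, and was 0.00671 CPM without it. The same cell held 99.4% of the *Agrn* sum of Mac. Without cell 31 the leading genes of E9.5 HPCs were *Hapln1* (151.2 CPM; 0, 83.5 and 1351) and *Mmrn1* (116.6 CPM; 0, 45.9 and 596). *Hapln1* was in 45 of 46 E9.5 HPCs and in 49 of 87 E10.5 HPCs, where it averaged 23.3 CPM (0, 0.757 and 208).

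Genes of the same pathway outside the list were counted in the same way, over 84 further matrix genes, processing enzymes and matrix receptors that were in the tables. In E8.5 endothelium against E7.75 mesoderm, 19 of 47 tested were higher (20.3% of all genes) and 13 lower (12.8%). *Adamts5* (a protease that cuts versican) was in 0 mesoderm cells and at 71.2 CPM in E8.5 endothelium, and at 428 CPM at E10.5. *Itga6* (a laminin receptor chain) was at 8.79 CPM in E7.75 mesoderm and 279 CPM in E8.5 endothelium, log2 4.84. *Col14a1* was at 0.744 and 52.9 CPM, log2 4.95. On the lower side, *Adamts3* (13.9 CPM at E7.75), which processes procollagen, and *Frem2* (12.9 CPM) were at 0 in E8.5 endothelium. *P3h2*, a prolyl hydroxylase that acts on collagen IV, was at 7.41 CPM in E8.5 endothelium, log2 -3.67.

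Between E7.25 and E7.75, 10 of 38 of these genes were higher (4.92% of all) and 1 lower (5.46%). *Itga3* was at 2.56 and 44.3 CPM, log2 3.67, and *Smoc2* at 1.06 and 18.2 CPM, log2 3.22. *Has2*, the hyaluronan synthase of the early embryo, was the lower one, at 29.5 and 11.2 CPM, log2 -1.33. In E8.5 endothelium against HPCs, 29 of 39 were higher (17.9% of all) and 5 lower (10.4%), with *Itga3* higher by log2 5.24, and *Itgb3* (an integrin chain of platelets) and *Thbs1* (thrombospondin 1) lower by -6.27 and -6.22. At E10.5 against E8.5 endothelium, 25 of 45 were higher (21.2% of all) and 3 lower (16.4%). *Sparcl1*, a relative of *Sparc*, was at 15.5 and 351 CPM, log2 4.41, and *Lama3* at 0.677 and 33.7 CPM, log2 4.37. At E10.5 against HPCs, 40 of 46 were higher (30.4% of all) and 4 lower (20.4%). In E8.5 endothelium against E7.25 mesoderm, 25 of 38 were higher (20.8% of all) and 4 lower (12.8%).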

How the data were processed

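Single-cell RNA-seq of sorted mouse yolk sac cells was used as deposited. The authors aligned the reads with Rsubread to the GRCm38 mouse genome and made gene counts with featureCounts. They filtered cells and genes with scater and deposited the filtered counts, and a signal table of CPM scaled per cell with scran size factors. The counting is not stated to use strand. Here a gene was detected at 1 count or more, and levels were means of CPM over cells. Ratios were log2 of mean CPM + 1, where either population averaged at least 10 CPM, and a ratio of 1 or more in size was called. Intervals of shares are exact (Clopper-Pearson, 95%). They cover counting error alone, since reads are not molecules. A gene in no cell was given an upper limit of 3 cells. Exon lengths and overlaps came from GENCODE on GRCm38, and promoter windows from RefSeq.

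The listed genes, their groups and the other gene lists were chosen with earlier results of these data known. Every listed gene in the tables could be named. The lowest, median and highest cell are given for genes among the 3 highest of a population or called at 4-fold or more, and of the other matrix genes the 3 largest ratios per direction could be named. Alternatives were the scaling, the pseudocount, the filter, the average, the lanes, the cells and the threshold of detection, and leaving out 3 cells that stood apart, the highest cells or *Hapln1* was added after seeing the data. No doublet caller was run. Instead, cells holding at least 5 *Xist* counts together with at least 5 from 4 Y-linked genes were left out as an alternative. All 96 index pairs were reused across lanes and 0 within a lane. On simulated data for E8.5 endothelium over E8.5 HPC (15967 genes), 180 of 200 changed genes were within 0.5 of the set log2 ratio, and 12 of 8384 unchanged genes were called. The simulation drew each gene of each cell independently, with the same spread for all genes and no lane, capture or doublet effect. It therefore gives no error rate for calls on the real cells. Scripts ran in Python 3.11.15 with scipy 1.17.1, pandas 2.3.3, matplotlib 3.10.9 and numpy 2.4.6.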

Additional observations from a re-analysis of the deposited data

Results flagged for a closer look

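*Mmrn1* stood apart because the ratio of mean levels, endothelium to progenitors, had the opposite sign at the 2 stages. It was -1.93 at E8.5 and 0.58 at E10.5, as log2 of mean CPM + 1, and the difference was not tested. Only the mean changed sign, and the median HPC held more *Mmrn1* than the median endothelial cell at both stages. *Mmrn1* was found in 84.3% of HPCs and 51.9% of endothelial cells at E8.5, and in 87.4% and 72.1% at E10.5. The HPC gates also differ between the stages, since E8.5 HPCs carry CDH5 and E10.5 HPCs do not.

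Listed genes outside the filtered tables had counts in the table of all captured cells. *Col6a1* had 657 counts in 18 cells, 427 of them in a single E7.25 cell. *Col6a2* had 340 counts in 27 cells, of which 234 were at E7.75, 71 at E7.25 and 31 in E8.5 endothelium. *Dcn* had 462 counts in 5 cells, 380 of them in a single E7.25 cell. *Lox* had 1 count.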

How the results depend on the processing

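Of 177 values recomputed under the alternatives, 23 moved (a count by over 1.5 times) and 3 changed sign. At E7.75 over E7.25, a pseudocount of 10 CPM gave 5 genes higher and 0 lower, and no filter gave 16 higher. The 1 gene lower became 0 without cells with transcripts of both sexes, in all captured cells and without the highest cell per gene. In E8.5 endothelium over HPC, 2 genes were lower with CPM from total counts, in all captured cells, without the 3 cells that stood apart and without the highest cell per gene. In E10.5 over E8.5 endothelium, the mean of log2(CPM + 1) gave 8 higher. In E10.5 endothelium over HPC, no filter gave 2 lower and the mean of log2 values 1. Without the 3 cells that stood apart, E8.5 endothelium had 21 higher and 9 lower over E7.75, and 27 and 5 over E7.25. Over HPC it had 27 and 2. E10.5 endothelium then had 13 higher and 6 lower over E8.5 endothelium, and 32 and 0 over HPC. The log2 ratio of basement membrane over interstitial was 0.09 at E7.25, 0.30 at E7.75 and 1.60 in E8.5 endothelium without the highest gene of each list, and 0.07 at E7.75 and 2.15 in E8.5 endothelium without *Hapln1*. At 10 counts or more, 14 genes at E7.25, 19 at E7.75, 4 in E10.5 HPC and 1 in Mac were in at least 50% of cells. Leaving out each lane of a mesoderm stage gave 10 to 12 higher and 0 to 2 lower at E7.75 over E7.25, 23 to 24 and 8 to 9 for E8.5 endothelium over E7.75, 28 to 29 and 4 for it over E7.25, and log2 ratios of -0.70 to -0.49 at E7.25 and -0.41 to -0.12 at E7.75. Leaving out each of the 3 E10.5 EryP cells gave 0 to 3 genes. Thinning left out 46 cells, 18 of them at E7.75. Why these values moved was not tested. No paired analysis was possible because the numbers in the labels only name cells and no test was run.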
